A study of Mus musculus with 6 samples.

Results

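The cells described here are the 60 sciatic nerve cells to which the authors gave the cluster name SCP, of 364 cells in the deposited annotation. They were chosen by that name alone. The other cells carry the names mySC (92 cells), nmSC (24), repairSC (45) and Macrophages (143). The study measured single-cell RNA in C57BL6/J mice aged 23 weeks that were fed a diet labelled SD or one labelled HFD, after Schwann cells had been enriched on magnetic anti-O4 beads, which bind a sulfated lipid on the surface of myelin-forming glia. Libraries were droplet-based 3′ libraries, in which each cell carries a barcode and each captured RNA molecule a unique molecular identifier (UMI). The 60 cells came from 3 SD libraries (19, 10 and 6 cells) and 2 HFD libraries (3 and 22 cells). Separate animals are not named for the libraries in the labels, and the p-values therefore reflect a spread between libraries that may be technical.

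The abbreviation SCP is not spelled out in the sources used here. In this field it commonly stands for Schwann cell precursor, an embryonic cell that migrates along growing axons, divides, and gives rise to immature Schwann cells. Myelinating Schwann cells of the adult nerve wrap 1 axon each in compact myelin, whose structural proteins include Pmp22 and Mbp, and they build their membrane with high rates of cholesterol and sphingolipid synthesis. Precursors, in contrast, are known for genes such as Sox2, Ngfr, Cdh2, Tfap2a and Pax3 and lack the bulk of myelin protein transcripts. The question the name poses is therefore which of these gene sets the 60 cells express.

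The cells named SCP held 249554 UMIs, with a median of 4230 per cell (range 137 to 9146) and 1744.5 genes per cell. The median was 626.5 UMIs in mySC, 2693 in nmSC, 261 in repairSC and 1064 in Macrophages, so shares of cells with a UMI are also given after each cell was thinned to 500 UMIs. Thinning kept 58 SCP and 59 mySC cells and left out 2 and 33. Mitochondrial UMIs made up a median of 2.63% of a cell's UMIs. Levels are given as CPM, the UMIs of a gene divided by all UMIs of the cell group in a library and scaled to a total of 1000000, as mean ± SD over the 5 libraries. Over all 60 cells 3 UMIs correspond to 12 CPM, and this limit covers counting error only. CPM of 3′ counts were not used to rank one gene against another.

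Pairs of barcodes 1 base apart bear on which barcodes are separate cells, so they are given before the values. No barcode was shared between libraries, but 6 pairs within a library differed by 1 base and joined a deep SCP barcode to a shallow one. The shallow barcode was named SCP in 2 pairs and mySC in 4. The barcodes are printed 5′ to 3′ with the differing bases in capitals, and substitutions give the deep barcode's base, the position counted from 1 at the 5′ end, and the shallow barcode's base.
HFD replicate 2, SCP, 5624 UMIs: catgcaaaggtTaAac
HFD replicate 2, SCP, 137 UMIs, T12C: catgcaaaggtCaAac
HFD replicate 2, SCP, 140 UMIs, A14G: catgcaaaggtTaGac
SD replicate 3, SCP, 4842 UMIs: acgggtctcacTgttT
SD replicate 3, mySC, 301 UMIs, T12C: acgggtctcacCgttT
SD replicate 3, mySC, 284 UMIs, T16C: acgggtctcacTgttC
SD replicate 3, SCP, 3678 UMIs: cactgaatcGagccac
SD replicate 3, mySC, 135 UMIs, G10A: cactgaatcAagccac
SD replicate 2, SCP, 4685 UMIs: gttgcggaggAaaggt
SD replicate 2, mySC, 271 UMIs, A11G: gttgcggaggGaaggt
Between 99.6% and 100% of the UMIs of each shallow barcode fell in genes that its deep neighbour also counted. For the first HFD replicate 2 pair, the same share against the 18 other SCP cells of at least 2000 UMIs in that library was 36.5% to 63.5%. In SD replicate 3 the 3 shallow barcodes were 3 of the 7 mySC barcodes and held 720 of their 3102 UMIs. Whether the shallow barcodes are separate cells was not tested, and comparisons with mySC that turn on them are given with and without them.

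The 5 genes given with the label were all counted in every library. They were given for this same cluster, so their presence describes it and is no check of the name. Prx, the periaxin gene of noncompact myelin (chromosome 7, 27499324 to 27520214), stood at 1448, 1573 and 1398 CPM on SD and 868 and 1888 CPM on HFD. Pmp22, a compact myelin protein gene (chromosome 11, 63128982 to 63159547), stood at 7599, 8091 and 7327 CPM on SD and 3941 and 8774 CPM on HFD. Both genes were therefore low in HFD replicate 1, which had 3 cells, and the diets overlapped. Sox10, a transcription factor needed at every step of Schwann cell development (chromosome 15, 79154908 to 79165240), stood at 320, 429 and 627 CPM on SD and 668 and 334 CPM on HFD. Ctnna3, which encodes an alpha-catenin of cell junctions (chromosome 10, 63430098 to 65003667), stood at 5049, 5843 and 2218 CPM on SD and 4742 and 4916 CPM on HFD. Pcdh9, a protocadherin gene (chromosome 14, 93013410 to 93890679), stood at 3575, 2962 and 964 CPM on SD and 1403 and 3592 CPM on HFD. SD replicate 3 was the lowest library for both of these long genes. Coordinates are those of GENCODE vM21 on mm10, the build named in the submitters' processing notes. All 5 genes were counted in 33 of the 60 cells, and 54 cells had at least 4 of them.

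**Figure D1:**
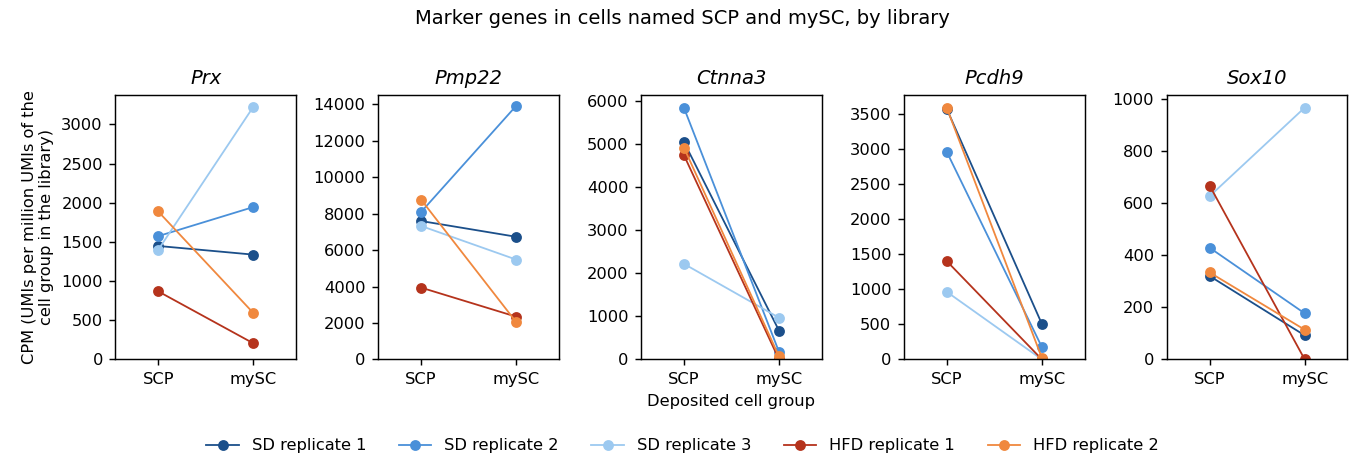
CPM of the 5 marker genes in cells named SCP and mySC, with 1 point per library and a line joining the 2 cell groups of a library. Ctnna3 and Pcdh9 were higher in SCP in all 5 libraries, whereas the lines of Prx run in both directions.

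The 5 genes did not all separate these cells from those named mySC. Prx stood at 1435 ± 370 CPM in SCP and 1461 ± 1192 CPM in mySC, and was higher in SCP in 3 of 5 libraries. The order of the means turned without SD replicate 2 (1401 and 1340 CPM) and without SD replicate 3 (1444 and 1020 CPM). Thinned to equal depth, 46.6% of SCP and 42.4% of mySC cells had a Prx UMI. Ctnna3, at 4554 ± 1372 CPM, was 12.1 times its mySC mean of 376 CPM, with a UMI in 87.9% of SCP and 8.47% of mySC cells after thinning. Pcdh9 was 17.7 times its mySC mean. Because clusters were made from the same counts, these differences describe the clusters and carry no test. Without the 4 mySC barcodes listed above, the mySC mean of Ctnna3 was 258 CPM, and for each of the 5 genes the number of libraries in which SCP was higher stayed the same. The mySC group also held barcodes rich in other cells' transcripts: its erythroid genes reached 338846 CPM in HFD replicate 1, and its neutrophil genes reached 44049 CPM in the library where they were highest. The part of those barcodes in the SCP to mySC differences was not tested.

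Mature myelin genes were abundant in all but a few of the 60 cells, and made up at least 1% of the UMIs of 58 cells. The 18 genes of the mature myelin list together made up 52963 ± 10284 CPM in SCP, about 5% of all UMIs, against 34734 ± 27871 CPM in mySC, 302 in nmSC, 337 in repairSC and 881 in Macrophages. The list stood at 54818, 52609 and 64115 CPM on SD and at 36268 and 57005 CPM on HFD, so HFD replicate 1 was the lowest library and the diets overlapped. All 18 genes were counted, and 13 of them had their highest mean in SCP. The list was higher in SCP than in mySC in 3 of 5 libraries, with or without the 4 shallow mySC barcodes.

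Among the structural proteins of compact myelin, Mbp, the myelin basic protein of the cytoplasmic face, stood at 3687 ± 1312 CPM in SCP and 9914 ± 15774 CPM in mySC, with SCP higher in 2 of 5 libraries. The mySC mean rested on SD replicate 3, at 37718 CPM from 7 barcodes, and without that library Mbp stood at 3115 CPM in SCP and 2963 CPM in mySC. Pmp22 stood at 7146 ± 1874 CPM against 6106 ± 4808 CPM in mySC, with SCP higher in 4 of 5, and at 6739 against 7119 CPM without HFD replicate 2. Pmp2, a fatty acid binding protein of peripheral myelin, had 1 UMI in 1 SCP cell, or 2.56 CPM, against 256 CPM in mySC, and was above mySC in 0 of 5 libraries.

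Genes for the noncompact parts of myelin and for its regulation were also counted. Mag, a receptor of the inner myelin membrane that faces the axon, stood at 312 CPM in SCP and 49.1 CPM in mySC. Cldn19, a claudin of Schwann cell tight junctions, stood at 699 CPM against 190 CPM, and Gjc3, a connexin gene, at 580 CPM against 67.6 CPM. Drp2, which anchors periaxin to the dystroglycan complex, stood at 747 ± 206 CPM in SCP and 843 ± 1181 CPM in mySC, and at 814 and 329 CPM without SD replicate 3. The connexin gene Gjb1 stood at 43.8 CPM in SCP and 57.0 CPM in mySC. Egr2, the transcription factor that drives myelin genes, was counted in 29 of 60 cells and stood at 280 ± 171 CPM against 88.4 CPM in mySC.

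**Figure D2:**
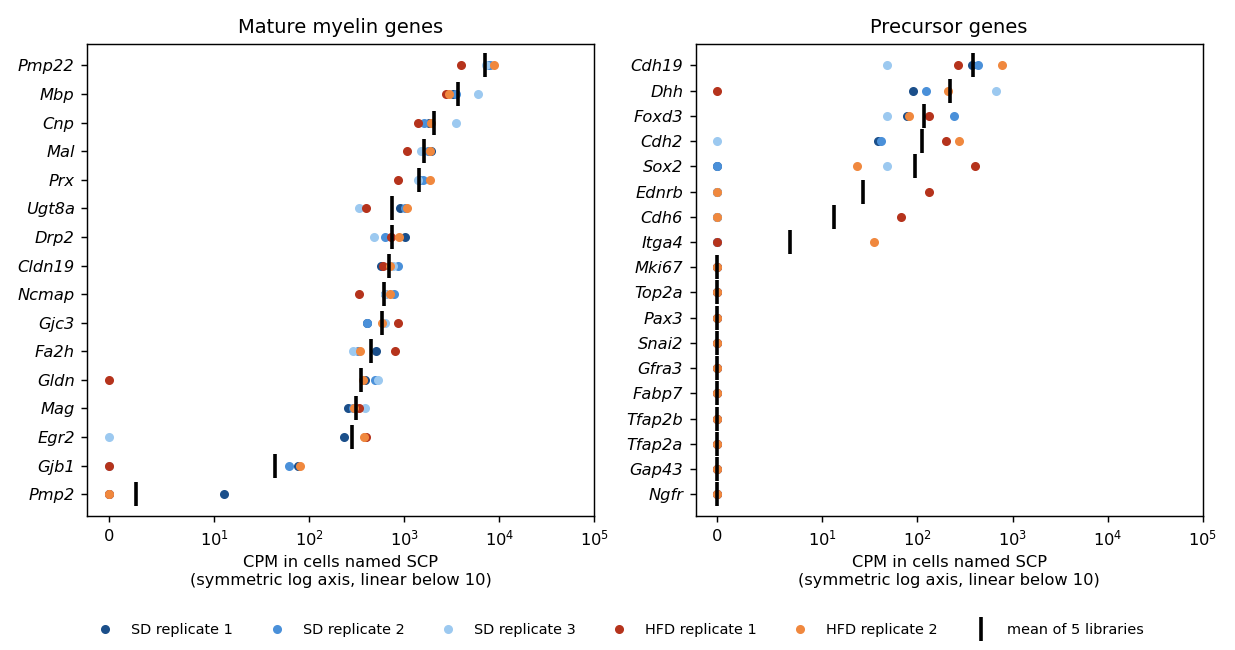
CPM in cells named SCP of 16 mature myelin genes (left) and the 18 precursor genes (right), with 1 point per library and a bar at the mean of 5 libraries, on a symmetric log axis that is linear below 10. All 16 myelin genes shown have a point above 0, and 10 of the 18 precursor genes lie at 0 in every library.

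Most of the precursor list was not counted. Its 18 genes together made up 968 ± 331 CPM in SCP, 704 in mySC, 416 in repairSC, 217 in nmSC and 166 in Macrophages. No UMI was counted in any of the 60 cells for 10 members: the neurotrophin receptor Ngfr, the growth cone gene Gap43, the neural crest transcription factors Tfap2a, Tfap2b, Pax3 and Snai2, the receptor Gfra3, the lipid carrier Fabp7, and the division genes Mki67 and Top2a. A count of 0 allows up to 12 CPM, or a UMI in up to 5% of these cells. The list was higher in SCP than in mySC in 2 of 5 libraries, and in 3 of 5 without the 4 shallow mySC barcodes. After thinning, 24.1% of SCP and 22.0% of mySC cells had at least 1 UMI of the list.

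The other 8 members were counted. Cdh19, a cadherin that Schwann cells keep into adulthood, had 123 UMIs in 36 cells, and Dhh, the hedgehog ligand with which Schwann cells signal to the nerve sheath, had 45 UMIs in 24 cells. Cdh19 stood at 380 CPM in SCP and 193 CPM in mySC, and Dhh at 219 and 230 CPM, or 243 and 199 CPM without SD replicate 2. Of the list, 4 members had their highest mean in SCP and 4 in mySC. Foxd3, a crest factor, was counted in 14 cells at 117 CPM, against 26.8 CPM in mySC, and was higher in SCP in 5 of 5 libraries. Cdh2, which encodes N-cadherin, was counted in 8 cells at 111 CPM, against 36.9 CPM in mySC, and was higher in SCP in 3 of 5. In Macrophages, which should lack these genes, Cdh19 and Dhh each had a UMI in 0.699% of cells and Foxd3 and Cdh2 in 0%. Sox2, which holds Schwann cells in an immature state, had 9 UMIs in 3 cells. It stood at 94.4 CPM in SCP and 64.5 CPM in mySC, and was higher in SCP in 2 of 5 libraries. Ednrb, Cdh6 and Itga4 were counted in 1 cell each. Myelin UMIs outnumbered precursor UMIs in 59 of the 60 cells, and 15 cells had no precursor UMI. The list totals had the same order in mySC (34734 and 704 CPM) and Macrophages (881 and 166 CPM), so this order does not bear on the name. The 10 uncounted precursor members go against reading SCP as Schwann cell precursor. So does the mature myelin list, at 52963 CPM in SCP and 302 CPM in nmSC. The 4 precursor members with their highest mean in SCP run the other way. The cells are called here by their deposited name.

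Cell division genes were near the limit of counting. The 18 genes of the cell cycle list made up 77.2 ± 76.4 CPM in SCP, 107 in mySC and 153 in Macrophages, and 15 of the 18 were at 0. Repair Schwann cell genes, which injured nerve switches on, were mostly at 0 in SCP, and in mySC and repairSC too: 10 of 15 in SCP, 10 in mySC and 12 in repairSC. The list stood at 736 CPM in SCP, 848 CPM in mySC and 582 CPM in repairSC. In SCP the genes at 0 included the ligands Shh, Gdnf and Bdnf and the factor Olig1. Jun, the transcription factor of the injury response and also an immediate early gene, gave 567 of the 736 CPM of that list, against 671 CPM in mySC. Without SD replicate 2 Jun stood at 626 CPM in SCP and 618 CPM in mySC, and without SD replicate 1 the list stood at 699 and 685 CPM.

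Markers of other cell types were scarce in these cells. The 47 genes of the 11 other-type lists reached at most 0.199% of the UMIs of any SCP cell, with a median of 0.0612%. The 8 macrophage genes made up 53.3 CPM in SCP against 33621 CPM in Macrophages, and Aif1, Csf1r, Ptprc and Fcgr3 were at 0. Erythroid, mast, oligodendrocyte and melanocyte genes were at 0, and endothelial genes stood at 18.2 CPM. Among fibroblast genes, Col1a2 was an exception, with a UMI in 42 of 60 cells and 395 ± 216 CPM, while its partner chain gene Col1a1 stood at 16.1 CPM and Lum and Pdgfra at 0. In nmSC, Col1a2 stood at 2002 CPM and Col1a1 at 1608 CPM. After thinning, Col1a2 was counted in 17.2% of SCP, 15.3% of mySC and 0% of Macrophages.

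Genes for contact with the axon and with the basal lamina formed the second large group. The 25 genes of that list made up 11330 ± 1232 CPM in SCP, between 9545 and 12490 in every library. They made up 3569 ± 2119 CPM in mySC, 4267 ± 2278 CPM in nmSC and 6975 ± 6704 CPM in repairSC. Cntnap2 alone gave 5043.5 CPM of the repairSC total, and stood at 7.17 CPM in SCP. All but 1 of the 25 genes were counted in SCP, and 14 had their highest mean there, against 7 in nmSC. Utrn, Dmd and Dag1 belong to the complex that links the Schwann cell cytoskeleton to laminin outside the cell. Dmd stood at 1044 CPM in SCP and 74.7 CPM in mySC, but at 910 ± 1157 CPM in repairSC. Utrn stood at 2937 CPM against 1034 CPM in mySC, and Dag1 at 865 against 337. Nfasc, whose glial form joins the paranodal junction beside the node of Ranvier, stood at 496 against 80.1 CPM. Kcna1, a potassium channel gene, was counted in 54 of 60 cells at 963 ± 230 CPM, against 155 CPM in mySC and 0 in the other 3 groups.

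Transcription factors of the lineage made up 4478 ± 1252 CPM in SCP, with 15 of 19 counted, against 2413 CPM in mySC, 3662 in nmSC, 3648 in repairSC and 6676 in Macrophages. In Macrophages 9 of the 19 were counted, and 3 had their highest mean there, against 6 in SCP. The list shares a gene with the repair list, which stood at 5716 CPM in Macrophages. The Macrophage total is therefore not read as expression of Schwann lineage factors. Pou3f1, which encodes the promyelinating factor Oct6, stood at 231, 592 and 627 CPM on SD and 2271 and 714 CPM on HFD. HFD replicate 1, with 3 cells, was far above the other 4 libraries, and 28 of its 34 Pou3f1 UMIs came from 1 cell. Zeb2, a repressor needed for Schwann cell maturation, stood at 1238 ± 318 CPM and was counted in 58 of 60 cells, against 558 CPM in mySC, 1801 in repairSC and 908 in Macrophages. Tead1, a partner of Hippo signalling, stood at 457 against 49.9 CPM.

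Receptors for axonal signals were counted at low levels. Of 18 receptor genes 17 were counted, at 3059 ± 559 CPM in all, against 1275 CPM in mySC and 3634 CPM in repairSC. Erbb3, which binds neuregulin from the axon, was counted in 26 of 60 cells at 180 CPM, and its partner Erbb2 in 10 cells at 52.0 CPM. Adgrg6, an adhesion receptor required for myelination, stood at 197 CPM in SCP and 42.3 CPM in mySC, but at 2525 CPM in repairSC.

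Lipid synthesis genes were broadly counted. All 19 cholesterol genes were detected, at 2585 ± 298 CPM in SCP and 1313 ± 1036 CPM in mySC, and 14 had their highest mean in SCP. Hmgcs1, an early enzyme of the pathway, stood at 445 CPM, and Srebf2, its main transcriptional regulator, at 211 CPM against 66.5 CPM in mySC. Msmo1 and Cyp51, which act late in the pathway, were higher in SCP than in mySC in 5 of 5 libraries, at 318 against 73.1 CPM and 223 against 98.8 CPM. Of the 20 fatty acid and sphingolipid genes 19 were counted, at 4143 ± 784 CPM against 2890 ± 2185 CPM in mySC. Scd2, a desaturase, stood at 1255 CPM in SCP and 1070 CPM in mySC, and the order turned without SD replicate 3 (1328 and 1338 CPM) and without HFD replicate 2 (1183 and 1207 CPM). Ugt8a and Fa2h, which make the galactolipids of myelin, stood at 748 against 292 CPM and 453 against 132 CPM.

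The genes that most set these cells apart were not the classic myelin genes. Genes were ranked by the ratio of their SCP mean to the highest mean of any other group, among 806 genes with at least 200 CPM and a UMI in at least 25% of SCP cells. Since the ranking used the measured values, these values are a description. Wdr17 ranked first, with 76 UMIs in 30 SCP cells, 252 ± 106 CPM, and no UMI in the other 304 cells, which allows up to 3.31 CPM there. Next came Fign, a microtubule-severing enzyme, at 415 CPM and 4.61 CPM in mySC, and Adamts20, a secreted metalloprotease, at 394 CPM and 4.61 CPM. Slc7a2, a transporter of cationic amino acids, stood at 490 CPM and 13.8 CPM in mySC.

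The remaining leading genes were of mixed kinds. Sorcs1, a sorting receptor, was counted in 55 of 60 cells at 2307, 2064 and 771 CPM on SD and 2271 and 1900 CPM on HFD, against 69.1 CPM in mySC. SD replicate 3 was again the lowest library. The 25 genes also included the adhesion genes Lrrtm3 (279 CPM), Nrcam (311 CPM), Ptprt (467 CPM) and Sdk1 (1654 CPM), the latter with 176 CPM in its highest other group. Il34, a cytokine that binds Csf1r, stood at 290 CPM, and the cytokine gene Il16 at 1013 CPM against 101 CPM in its highest other group. Fut8, the enzyme of core fucosylation, closed the 25 at 1135 CPM. Other members were 9530059O14Rik, Emid1, Pcdh9, Tox, Gm10863, Xkr4, Ctnna3, Ankfn1, Ncald, Prss12 and Nav3.

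Some of these genes overlap or adjoin others on the genome, and strand use in the counting is not given in the sources used here. Lrrtm3 lies wholly inside Ctnna3 on chromosome 10, on the opposite strand, over 162 kb. Reads of overlapping partners cannot be told apart without strand, so the level of Lrrtm3 is uncertain. Gm10863 starts 800 bases from Sox10 on the opposite strand and does not overlap it.

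The leading genes were long. Their median genomic span was 258 kb, and 19 of the 25 exceeded 100 kb, against a median of 54.1 kb and 36.9% over 100 kb among the ranked genes. The mature myelin genes had a median span of 19.0 kb. Across 635 genes selected on the mean of both groups, the median log2 ratio of SCP to mySC was −0.57 for spans under 10 kb (232 genes), 0.10 from 10 to 30 kb, 0.76 from 30 to 100 kb, 1.74 from 100 to 300 kb and 2.70 above 300 kb (70 genes). The rank correlation of span with the ratio across these genes, which are not independent replicates, was 0.60. Within libraries, over the 335 to 624 of these genes counted in both groups, it was 0.56, 0.48 and −0.25 on SD and 0.51 and 0.64 on HFD. SD replicate 3, in which 3 of 7 mySC barcodes were neighbours of SCP barcodes, was the library that ran the other way, and it stood at −0.37 over 223 genes without those barcodes.

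UMIs from genes over 100 kb made up 24.3%, 27.2% and 17.9% of SCP UMIs on SD and 27.3% and 27.2% on HFD. The mean was 24.8% ± 4.04 in SCP, 13.6% ± 3.44 in mySC, 19.2% in nmSC, 36.0% ± 13.7 in repairSC and 10.7% in Macrophages. In SD replicate 3 the mySC share was 17.6%, and 19.6% without the 3 shallow barcodes, so SCP was above mySC in all 5 libraries with them and in the other 4 without them. A high long-gene share was thus shared with repairSC. The nuclear noncoding RNA list stood at 103795 ± 11186 CPM in SCP and 159709 ± 83575 CPM in mySC. Of its members, however, 4 had their highest mean in SCP and 1 in mySC. Malat1 ran against the list total, at 46712 CPM in SCP and 10185 CPM in mySC. Most of the mySC total thus came from other members, and the list total is not read here as a measure of nuclear content. The part of nuclear content in the span pattern was not tested.

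**Figure D3:**
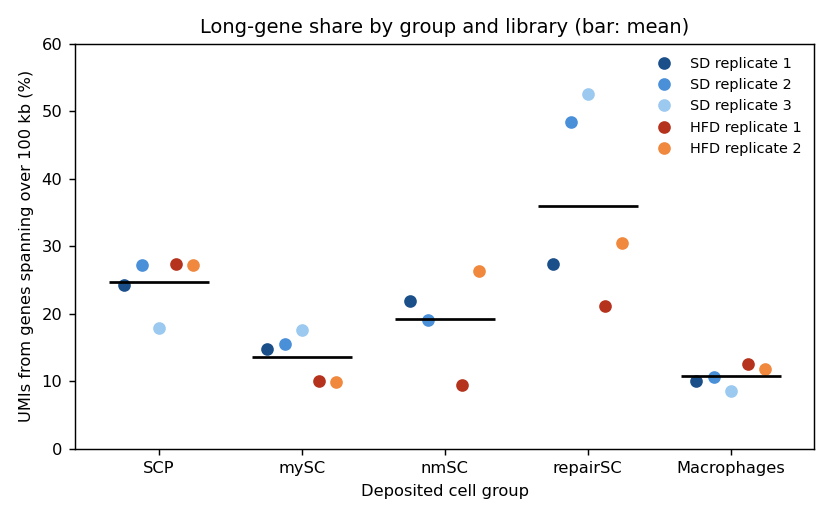
Percent of UMIs from genes spanning over 100 kb, by deposited cell group, with 1 point per library and a bar at the mean. SCP libraries lie between 17.9% and 27.3%, above the mySC points of the same library in all 5, although SD replicate 3 mySC rises to 19.6% without 3 shallow barcodes.

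Cells varied widely around these means. Myelin genes took 0.367% to 11% of a cell's UMIs, with a median of 5.40%, and 11 cells lay under 3%. At least 10 of the 18 myelin genes were counted in 52 cells. Across the 58 cells with at least 500 UMIs, which share libraries and in which shares of 1 total are bound to one another, Spearman's rho of Ctnna3 with Pcdh9 was 0.42. The myelin share showed little relation to the mitochondrial share (0.03).

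Immediate early genes, which dissociation and other stimuli switch on within minutes, varied between cells as well. The list made up 10127 ± 3138 CPM in SCP, 10482 in mySC, 24399 in nmSC and 42056 in Macrophages. Its order between SCP and mySC turned without SD replicate 1 (10266 and 9246 CPM) and without HFD replicate 2 (10206 and 10111 CPM). In SCP, 0 of its 16 genes had their highest mean. Fos stood at 2947, 3065 and 2410 CPM on SD and 4675 and 3650 CPM on HFD, and was counted in 33 of 60 cells. The diets did not overlap for Fos, but its log2 difference of 0.49 ± 0.34 (SE) had an adjusted p of 1.00 in edgeR's quasi-likelihood test. In HFD replicate 1, 66 of the 70 UMIs of Fos came from 1 cell.

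A single HFD replicate 2 cell differed from the other 59 and was singled out after its values were seen. It held 5448 UMIs, of which 20 (0.367%) were myelin and 132 (2.42%) were of the nonmyelinating list, against at most 0.824% in any other SCP cell. It had 95 of the 115 SCP UMIs of Cadm2, an adhesion gene, 72 of 76 of Csmd1, all 10 of Ncam1 and 28 of 56 of Grik2. It had 1 UMI of Pmp22, where the median of the other cells was 28, and none of Sorcs1. Sorcs1 is on the nonmyelinating list and gave 496 of that list's 681 UMIs in SCP cells, but stood at 0 CPM in nmSC. The share of the list in the other SCP cells was therefore mostly Sorcs1. The singled-out cell carried 18 UMIs of Ctnna3 and 58 of Pcdh9, and all 5 genes given with the name were counted in it.

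**Figure D4:**
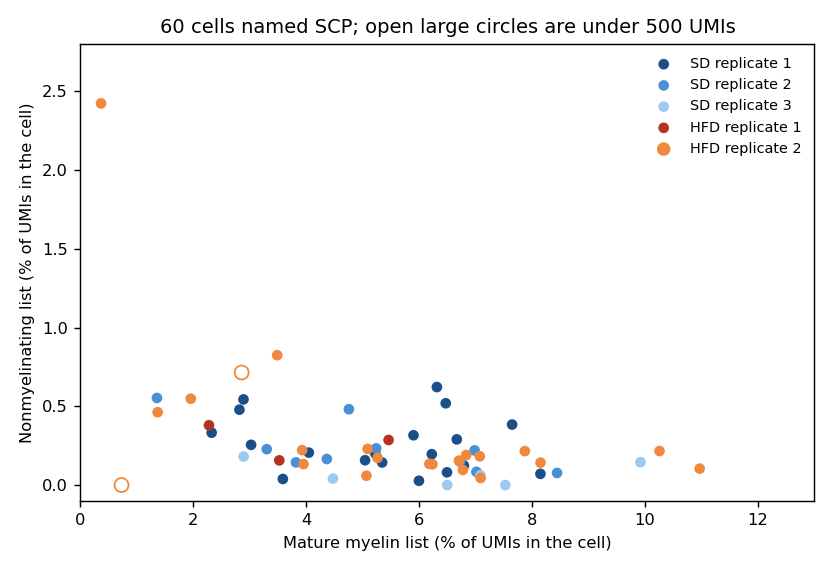
Percent of each cell's UMIs from the nonmyelinating list against the mature myelin list, for the 60 cells named SCP, coloured by library, with open circles for the 2 cells under 500 UMIs. A single HFD replicate 2 cell lies at 0.367% myelin and 2.42% nonmyelinating, apart from the others. Sorcs1, of which that cell had none, gave 496 of the 681 UMIs of the nonmyelinating list in SCP cells.

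Leaving out that cell and the 2 shallow SCP barcodes left the myelin account in place and changed that of a few genes. Over the 57 remaining cells the mature myelin list stood at 53706 CPM and the precursor list at 867 CPM. Cadm2 fell from 284 to 67.2 CPM, Csmd1 from 175 to 9.86 CPM and Cdh2 from 111 to 68.3 CPM. The levels of Cadm2, Csmd1 and Cdh2 in SCP cells therefore rested in large part on 1 cell.

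No gene was shown to differ by diet in these cells. Of 1019 genes tested with edgeR's quasi-likelihood test on UMIs summed per library, 0 (0%) passed a Benjamini-Hochberg adjusted p of 0.05. At an unadjusted p under 0.05, 12 genes (1.18%) were higher and 4 (0.393%) lower on HFD, and DESeq2 called 0 genes, with 7 higher and 2 lower unadjusted. The median log2 difference of all tested genes was −0.02, with 489 above and 530 below 0. Fewer cells expressing a gene and less RNA per cell cannot be told apart in such sums, and 1 of the 2 HFD libraries had 3 SCP cells.

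The gene nearest to the threshold was Nlgn1, which encodes a neuroligin, an adhesion protein best known from synapses. It stood at 38.4, 245 and 96.4 CPM on SD and 2004 and 345 CPM on HFD, so that the diets did not overlap. Its 77 UMIs came from 16 cells, and 17 of them from 1 cell. The log2 difference was 2.98 ± 0.74 (SE) with an adjusted p of 0.238 in edgeR's quasi-likelihood test. Without HFD replicate 1 it was 1.49 with an adjusted p of 1.00, and with the sequencing run as a term it was 3.33 with an adjusted p of 0.00328. Over all alternatives the adjusted p of Nlgn1 ran from 0.000777, without HFD replicate 2, to 1.00.

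The other genes with the lowest p-values had adjusted p of 1.00. On the higher side were Ier2 and Btg2, both immediate early genes, whose HFD replicate 1 values of 1135 and 2338 CPM came from 17 and 35 UMIs in 1 cell each. Pou3f1 differed by 1.52 ± 0.59 and Pex5l by 1.40 ± 0.58 on the log2 scale, and Tesk2 by 2.18 ± 0.84. Of the 34 UMIs of Pou3f1 in HFD replicate 1, 28 came from 1 cell. Without HFD replicate 1 the log2 difference was 0.66 for Pou3f1, 1.13 for Pex5l, 1.26 for Tesk2, 1.51 for Ier2 and 0.04 for Btg2, against 3.16 and 1.95 for Ier2 and Btg2 with it. On the lower side, Ndufab1, a subunit of mitochondrial complex I, stood at 218, 163 and 386 CPM on SD and 0 and 11.5 CPM on HFD. All 5 libraries together held 34 UMIs of Ndufab1 in 16 cells. Uqcr10, of complex III, differed by −2.16 ± 0.81, and Mir100hg, Pnrc1, Rpl7a and Tuba1b by between −1.27 and −1.99.

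Myelin genes showed no diet difference beyond the spread between libraries. Of 18 mature myelin genes 16 could be tested, 5 lay above and 11 below SD, none passed, and their median log2 difference was −0.16. Mbp stood at 3268, 3494 and 5978 CPM on SD and 2738 and 2959 CPM on HFD. The groups did not overlap, but the difference of −0.60 ± 0.35 had an adjusted p of 1.00 in edgeR's quasi-likelihood test. The difference was −0.28 ± 0.33 for Pmp22 and −0.06 ± 0.46 for Prx. It was 0.08 ± 0.35 for Ctnna3, −0.01 ± 0.48 for Pcdh9 and 0.01 ± 0.64 for Sox10, each with an adjusted p of 1.00 by the same test.

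No other list held a gene that passed. Of the axoglial and basal lamina genes 12 lay above and 5 below SD (median 0.24), of the cholesterol genes 2 above and 4 below (median −0.43), and of the immediate early genes 7 above and 5 below (median 0.28). Only 2 precursor genes had enough UMIs to be tested: Cdh19, at 0.87 ± 0.63, and Dhh, at −0.71 ± 0.87.

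**Figure D5:**
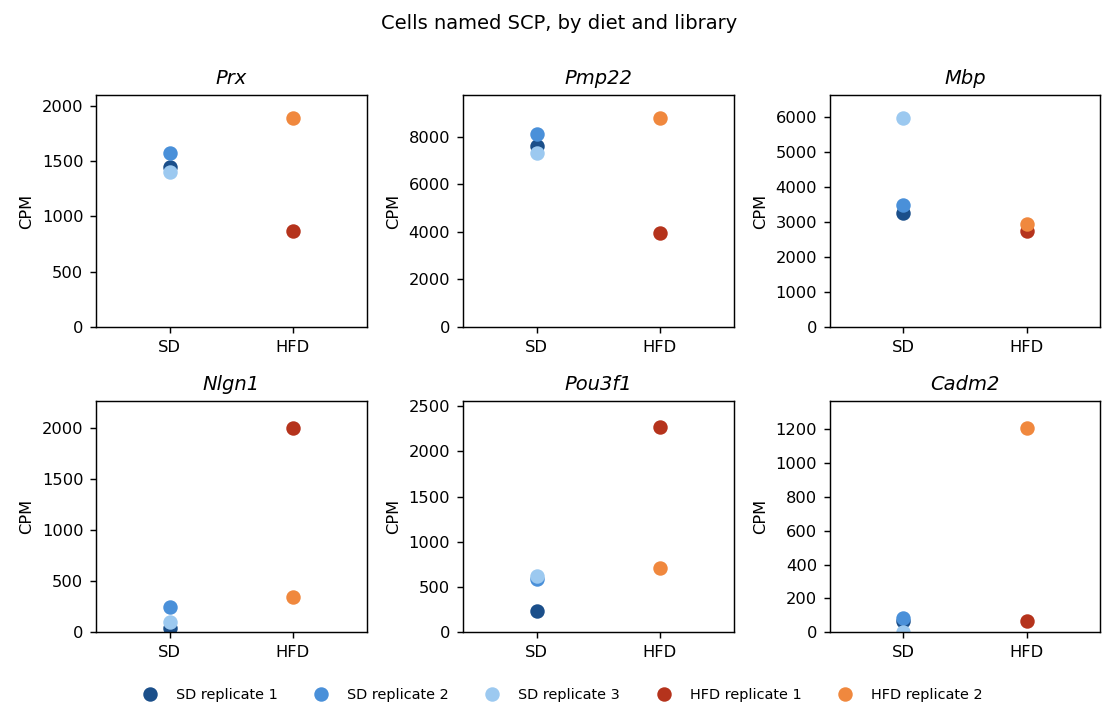
CPM of 6 genes in cells named SCP, by diet, with 1 point per library. For Nlgn1 and Pou3f1 the HFD replicate 1 point, from 3 cells, lies far above the rest. In that library 1 cell held 28 of the 34 UMIs of Pou3f1. For Cadm2 the HFD replicate 2 point of 1209 CPM rests on 95 UMIs of 1 cell.

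Summed values per library were compared by 4 two-sided exact permutation tests over the 10 ways to assign the libraries to the diets, which cannot give a p under 0.1. Cells named SCP were 23.8%, 12.3% and 15.0% of all cells on SD and 5.26% and 20.8% on HFD, with an exact 95% interval for HFD replicate 1 of 1.10% to 14.6%. The difference of −4.02 percentage points had an exact permutation p of 0.7 (adjusted 0.7). Within sequencing run 1 the difference was −12.8 and within run 2 it was 5.75, so the sign was not shared. Without HFD replicate 1 the difference was 3.72, and without cells under 500 UMIs it was −20.95 percentage points (exact permutation p 0.6). The mature myelin list differed by −10544 CPM, HFD minus SD (exact permutation p 0.5, adjusted 0.667), with differences of −17446 and −7110 CPM within the runs. The median UMIs per cell differed by 348 (exact permutation p 0.5, adjusted 0.667), and by 360 and 608.5 within the runs.

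Of the 4 values, the diets did not overlap for the precursor list alone. It stood at 577, 838 and 820 CPM on SD and 1202 and 1405 CPM on HFD, a difference of 559 CPM with the smallest p these libraries allow (exact permutation p 0.1, adjusted 0.4). Within the runs it was 495 and 585 CPM. In HFD replicate 1 the list was made up of 6 UMIs of Sox2 in 1 cell, 4 of Cdh19, 3 of Cdh2 in 1 cell and single or paired UMIs of other members. In HFD replicate 2 the cell rich in nonmyelinating genes held 28 UMIs of Cdh19 and 19 of Cdh2. Without that cell and the 2 shallow barcodes HFD replicate 2 stood at 900 CPM and the difference was 306 CPM.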

How the data were processed

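Single-cell RNA was measured in 3 SD and 2 HFD libraries. The sample labelled HFD replicate 3 is not analysed here. Cell Ranger 3.1.0 and the build mm10 are named in the submitters' processing notes. Raw UMI counts were deposited by the authors for 32285 gene symbols in 364 cells, with a table of each cell's library, diet and cluster name. The percent of mitochondrial UMIs per cell was deposited by the authors. How cells were filtered and doublets treated earlier is not given in the sources used here. Doublets were not called again. The control diet of the tables was taken as SD, the one other diet in the labels. Project numbers in the library key were taken as sequencing runs: SD replicates 1 and 2 and HFD replicate 1 in run 1, SD replicate 3 and HFD replicate 2 in run 2.

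CPM divide the UMIs of a gene by all UMIs of a cell group in a library. Diet was tested on UMI sums per library (20744 to 86852 for 4 libraries, 14972 for HFD replicate 1) by the robust quasi-likelihood test of edgeR 4.0.16 (R 4.3.3) after filterByExpr and TMM, adjusted by Benjamini-Hochberg at 0.05, with DESeq2 1.42.0 as an alternative. Counts were also simulated with a fixed spread between libraries that was not estimated from these data, and 814 genes passed the filter. Of these, 83.7% of genes raised and 66.7% of genes lowered by 2 on the log2 scale were called. The shares were 100% and 97.5% for those changed by 3, and 0.943% for unchanged genes. They are not the power in the real libraries, where Nlgn1 at 2.98 did not pass. Exact permutation tests were two-sided. The exact binomial interval is Clopper-Pearson. Gene spans are those of GENCODE vM21.

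Alternatives covered scaling, tool, filter, sequencing run, replicate block, cells per library, shallow cells, other cells' markers and leaving out each library. SCP and mySC means without each library, or without mySC barcodes next to SCP ones, were added after seeing the data. Results for some genes are not reported here. The text otherwise names the mature myelin and precursor genes or their range, the 25 leading genes, up to 5 members of each other list, the 6 diet genes with the lowest p per direction and the 5 marker genes. Genes, cells and barcodes described beyond this were chosen after their values were seen. The cells and all gene lists were chosen with earlier results of these data known.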

Additional observations from a re-analysis of the deposited data

How the results depend on the processing

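The count of genes called by diet was 0 with RLE size factors, DESeq2, cells under 500 UMIs left out, the limit on other cells' markers (which removed no cell), and without the nonmyelinating-rich cell and 2 shallow barcodes, an alternative added after seeing the data. It was 2 with no filter on low counts (Csmd1 and Cadm2), 1 with the sequencing run as a term (Nlgn1), 2 with the replicate number as a block (Btg2 and Ier2, adjusted p 0.033; deviations of same-numbered libraries correlated at −0.0925 and 0.0160, so pairing was not shown) and 2 with at least 5 cells per library (Csmd1 and Cadm2). Leaving out each library gave 0 to 4 genes: 2 without HFD replicate 1 (Csmd1 and Cadm2) and 4 without HFD replicate 2 (Btg2, Frmd5, Nlgn1 and Ier2). In these fits the lone HFD library is assumed to vary like the SD libraries. The Csmd1 and Cadm2 calls contain the 95 UMIs of Cadm2 and 72 of Csmd1 in 1 cell. Those of Btg2 and Ier2 contain 35 and 17 UMIs in 1 cell each. Nlgn1 had 30 UMIs in 3 HFD replicate 1 cells and 30 in 7 HFD replicate 2 cells, with at most 17 in 1 cell. Frmd5 had 25 UMIs in 3 HFD replicate 1 cells, with at most 21 in 1 cell. The difference in the share of SCP cells turned to 3.72 percentage points without HFD replicate 1, and over all libraries left out it ran from −11.8 to 3.72. None of the named diet genes changed direction. Leaving out each library, the myelin list ran from 50175 to 57137 CPM and the precursor list from 859 to 1066 CPM. Their diet differences ran from −20913 to −176 CPM and from 458 to 660 CPM, and that of the median UMIs from 63.7 to 632. With 3 cells in HFD replicate 1, a gene of 1 UMI there stands at 66.8 CPM, which limits what low genes can show.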

Other observations

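Further genes, chosen after their values were seen, describe a channel and a secreted protein in the cells named SCP. Kcnk1, a background potassium channel gene, stood at 199 CPM against 56.3 CPM. Dkk3, a secreted glycoprotein of the dickkopf family, was counted in 31 cells at 391 ± 97.5 CPM against 44.1 CPM in mySC.

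Several genes of myelinating cells outside the fixed lists were counted in most SCP cells. Qk, an RNA-binding protein of myelin transcripts, was counted in 59 of 60 cells at 3682 ± 628 CPM against 1713 CPM in mySC. Cd9, a tetraspanin, stood at 4466 ± 974 CPM and was above mySC in 5 of 5 libraries. Cryab, a small heat shock protein, stood at 2542 ± 630 CPM against 1705 CPM, and Gatm, an enzyme of creatine synthesis, at 1703 ± 271 CPM against 1171 CPM. Sparc, a matrix protein, ran the other way at 1833 CPM against 2996 CPM in mySC. Nkain2, which spans 1201 kb, stood at 4477 ± 1038 CPM in SCP and 3740 CPM in repairSC.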
